A study of Mus musculus with 20 samples.

Results

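The genes described here are 10 members of the ATF4 amino acid stress response, Atf4, Atf5, Ddit3, Trib3, Sesn2, Asns, Psat1, Phgdh, Chac1 and Fgf21, in mouse fat and liver. All 10 were found by symbol among the 48440 genes of the count table. They were selected on measured values of these data, the lower levels of Asns and Chac1 in knockout than in wild-type mice in both tissues. The knockout against wild-type values of the members are therefore given as a description with no test, while the difference between tissues, which the choice did not use, was tested.

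The libraries came from liver and gonadal fat pad of wild-type mice (WT) and of PKCepsilon-deficient mice labelled AdEpsKO (KO below). Every mouse was on the C57BL/6 background, ate a high fat diet for 1 week and was fasted for 6 hours before the tissues were taken, so no group on another diet or in the fed state was measured. Each combination of genotype and tissue had 5 libraries, numbered 1 to 5. The label AdEpsKO is not spelled out in the sources used here, which also leave the tissue of the deletion, the age and the sex unstated.

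ATF4 is a transcription factor whose protein is made when the initiation factor eIF2 is phosphorylated, as happens when cells run short of an amino acid, when unfolded proteins build up in the endoplasmic reticulum, or under viral or heme stress. This integrated stress response lowers general protein synthesis and lets the Atf4 mRNA be translated, so ATF4 protein can change with no change in its transcript. ATF4 pairs with C/EBP proteins and others of the basic leucine zipper (bZIP) kind at C/EBP-ATF response elements and raises genes for amino acid synthesis, amino acid import and tRNA charging, as well as brakes such as TRIB3. In liver the response is best known for FGF21, a hormone released into blood, and in both tissues amino acid supply and fasting act on it.

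The response element is shown first because it is the sequence that ties these genes to ATF4 in textbooks. The core TGATGNAA was searched on both strands in the RefSeq promoters of build GRCm38.p6, from 250 bases before to 50 bases after each start. All 10 members had a promoter in that table, and 4 of them, Asns, Chac1, Trib3 and Fgf21, held the core. Of all 27025 genes in the table, 4.51% held it. The 4 windows below run 5′ to 3′ along the gene's own strand, with the match in capitals.
Asns, chr6:7693214-7693243, minus strand: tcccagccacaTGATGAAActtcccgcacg
Chac1, chr2:119351038-119351067, plus strand: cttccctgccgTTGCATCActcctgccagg
Trib3, chr2:152344028-152344057, minus strand: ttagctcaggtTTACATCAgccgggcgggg
Fgf21, chr7:45615611-45615640, minus strand: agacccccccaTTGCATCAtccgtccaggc

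In Asns the core reads TGATGAAA along the gene and lies at -23 to -16 from the RefSeq start. In Chac1, Trib3 and Fgf21 it lies on the opposite strand, where it reads TGATGCAA in Chac1 and Fgf21 and TGATGTAA in Trib3. The Chac1 match lies at -193 to -186 and the Fgf21 match at -139 to -132, both before the start, while the Trib3 match lies at 15 to 22 after it. A match says only that these letters are in the window, and the other 6 members' windows lack them without bearing on whether ATF4 acts there. A longer stretch, from -200 to -51, is given for the matches that lie farthest upstream.
Chac1, chr2:119351042-119351191, plus strand: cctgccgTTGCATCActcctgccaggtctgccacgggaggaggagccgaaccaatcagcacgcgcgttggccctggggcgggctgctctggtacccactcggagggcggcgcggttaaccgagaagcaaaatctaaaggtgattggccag
Fgf21, chr7:45615541-45615690, minus strand: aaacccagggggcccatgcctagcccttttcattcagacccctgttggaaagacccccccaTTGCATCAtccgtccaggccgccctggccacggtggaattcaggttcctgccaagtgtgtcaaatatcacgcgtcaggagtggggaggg

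Library totals were 12880933 to 20784145 expected counts, and levels below are CPM, a gene's count relative to its library total after scaling by the trimmed mean of M values (TMM). Prkce, the gene of PKCepsilon, was counted at 16.2 to 25.4 CPM in KO fat and 25.7 to 48.7 in WT fat, and at 11.7 to 19.8 in KO liver and 14.4 to 27.1 in WT liver. Every KO fat library thus lay below every WT fat library, while the ranges overlapped in liver. The deleted part of the gene is not given, and the count covers the whole gene. Marker genes matched the labelled tissues: 6 adipocyte markers summed to 12331 to 23973 CPM in fat and 10.9 to 70.4 in liver, and 8 hepatocyte markers to 153056 to 219241 in liver and 1050 to 3735 in fat. KO fat 2 stood apart with 1286 CPM of 6 urothelial markers, against at most 21.4 in the other fat libraries. WT liver 2 and WT liver 4 held 155 and 246 CPM of 7 skeletal muscle markers, against at most 27.8 in the other liver libraries. In whole tissue, fewer cells of a type and less RNA per cell cannot be told apart.

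Most of the 10 genes differed between the tissues, and the serine and asparagine synthesis enzymes differed most. In WT mice, 8 of 10 members passed the test between fat and liver (edgeR quasi-likelihood test, adjusted p under 0.05), 4 higher in fat and 4 higher in liver. Of all 14739 genes tested there, 74.3% passed, so the count of 8 is near the background. By size, few genes lay as far or farther in the same direction as Phgdh (0.726%), Psat1 (1.61%), Asns (3.58%) and Fgf21 (4.74%). For the other members that share ran from 14.8% (Chac1) to 41.8% (Sesn2). All 10 passed the low-count filter of this fit. Fgf21 did not pass it among fat libraries alone, nor Phgdh among liver libraries alone, so each passed here through 1 tissue. The median log2 difference, fat minus liver, was 0.03 over the members and 0.04 over all genes tested. Directions of the smaller differences rest on the scaling between tissues: with library totals left unscaled the median of all genes moved to 0.97, and the members called became 6 higher in fat and 1 in liver.

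**Figure D1:**
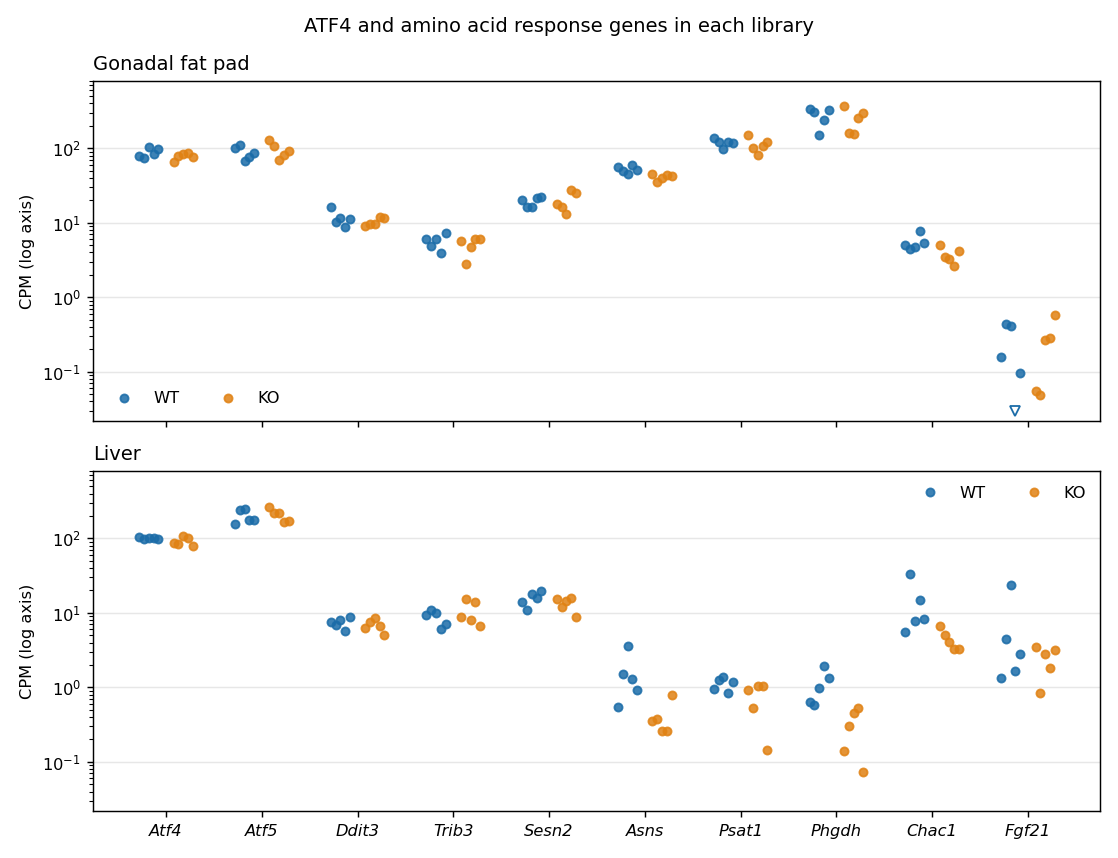
CPM on a log axis for each member (horizontal axis) in the gonadal fat pad (top) and liver (bottom), 1 point per library, WT in blue and KO in orange; the open triangle marks a library with 0 counts. Asns, Psat1 and Phgdh lie between 35.6 and 369 CPM in fat and below 4 CPM in liver, while Fgf21 lies below 1 CPM in every fat library.

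The transcription factors come first. Atf4 itself (chr15:80255184-80257541, plus strand) did not pass between tissues in the main fit: WT fat libraries 1 to 5 held 79.2, 73.3, 105, 83.0 and 98.6 CPM, and WT liver libraries 103, 99.6, 101, 99.8 and 99.5. The 5 WT livers lay close together, with an SD of 1.52 CPM, whereas the fat libraries, with an SD of 13.5, spread to both sides of them. The fat level was 0.856 times that of liver (95% interval 0.728 to 1.01, adjusted p = 0.0772), and it passed as lower in fat without WT fat 3 (adjusted p = 0.0149), without WT fat 5 (adjusted p = 0.0363) and without the pair of fat libraries with most hepatocyte transcripts (adjusted p = 0.0306). With totals left unscaled, Atf4 turned to higher in fat by 0.72 on the log2 scale (adjusted p = 0.000185), so its direction rests on the scaling.

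Atf5 (chr7:44812256-44816658, minus strand), a close relative of ATF4 that is also translated under stress, was higher in liver. Its levels were 101, 110, 67.4, 77.0 and 85.9 CPM in WT fat and 158, 243, 252, 175 and 178 in WT liver, with no overlap. Liver held 2.33 times the fat level (interval 1.80 to 3.01, adjusted p = 3.86e-05), a call that ended with totals left unscaled (log2 difference -0.30, adjusted p = 0.103). Ddit3 (chr10:127290774-127296288, plus strand) encodes CHOP, a C/EBP family factor linked to cell death under prolonged stress. It went the other way, at 16.1, 10.1, 11.7, 8.81 and 11.4 CPM in WT fat and 7.57, 6.93, 8.11, 5.68 and 8.85 in WT liver. The lowest fat library fell just under the highest liver library. The ratio was 1.53 (interval 1.17 to 2.00, adjusted p = 0.00757), and without the pair of liver libraries rich in muscle transcripts Ddit3 no longer passed (adjusted p = 0.0632).

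Of the brakes on the response, Trib3 was higher in WT liver and Sesn2 did not pass in WT mice. Trib3 (chr2:152337422-152344032, minus strand) encodes a pseudokinase that binds ATF4 and CHOP and dampens them. It ranged from 3.96 to 7.35 CPM with a median of 6.09 in WT fat and from 6.15 to 10.9 with a median of 9.46 in WT liver. Liver held 1.57 times the fat level (adjusted p = 0.0132), and with totals left unscaled the sign turned (log2 difference 0.29, adjusted p = 0.228). Sesn2 (chr4:132492032-132510501, minus strand), a leucine sensor that restrains mTORC1, ranged from 16.3 to 21.9 CPM in WT fat and from 11.1 to 19.5 in WT liver. Its ratio of 1.21 (interval 0.962 to 1.53, adjusted p = 0.119) missed the threshold, and the interval allows no difference, a slightly lower level or a higher level in fat. With totals left unscaled Sesn2 passed as higher in fat, by 1.21 on the log2 scale (adjusted p = 1.63e-05).

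The synthesis enzymes were far higher in fat. Phgdh (chr3:98313170-98339990, minus strand) makes the first step of serine synthesis from glucose and Psat1 (chr19:15904678-15947337, minus strand) the next. Phgdh stood at 336, 307, 152, 239 and 328 CPM in WT fat and at 0.631, 0.584, 0.988, 1.96 and 1.35 in WT liver. That is 245 times as much in fat (interval 144 to 417, adjusted p = 2.1e-09), and only 0.726% of the genes tested lay as far or farther toward fat. The liver values rest on 8 to 21 counts per library.

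Psat1 stood at 139, 121, 96.9, 121 and 117 CPM in WT fat and at 0.946, 1.24, 1.38, 0.839 and 1.18 in WT liver, a ratio of 104 (interval 83.1 to 130, adjusted p = 6.13e-11). The spread within either tissue was small beside the gap between them. Asns (chr6:7675169-7693254, minus strand) makes asparagine from aspartate and glutamine and is the standard readout of amino acid shortage. Its WT fat libraries held 55.8, 49.2, 44.7, 59.2 and 50.4 CPM and its WT liver libraries 0.552, 1.53, 3.56, 1.30 and 0.927. The ratio was 33.1 (interval 20.2 to 54.2, adjusted p = 4.58e-08). Within liver the highest library, WT liver 3, stood well apart from the lowest, WT liver 1, on 36 and 7 counts.

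Chac1 (chr2:119351229-119354381, plus strand), which breaks down glutathione and is a known ATF4 target, was higher in WT liver, but unevenly. WT fat held 4.99, 4.48, 4.67, 7.79 and 5.43 CPM and WT liver 5.60, 33, 7.71, 15.0 and 8.26. Liver held 2.61 times the fat level (interval 1.35 to 5.07, adjusted p = 0.0129). The high values were those of WT liver 2 and WT liver 4, the livers with most skeletal muscle transcripts, and without them the log2 difference, fat minus liver, was -0.43 (adjusted p = 0.126) in place of -1.38. Without WT liver 2 alone it was -0.77. With totals left unscaled it was -0.46 and the call ended (adjusted p = 0.352), so the call also rests on the scaling. The part of muscle tissue in the Chac1 level was not tested.

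Fgf21 (chr7:45613886-45615490, minus strand) encodes the fasting and stress hormone of the liver and shares chromosome 7 with Atf5, 797 kb away. WT liver held 1.34, 4.52, 23.6, 1.68 and 2.78 CPM and WT fat 0.156, 0.439, 0.406, 0 and 0.0961, on at most 10 counts per fat library. Liver stood 29.9 times above fat, with a wide interval of 6.82 to 131 (adjusted p = 0.000672). The log2 difference was -4.90, and -3.56 without WT liver 3, which still passed. Each WT liver library was above each WT fat library, and WT liver 3 stood far above the rest.

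The tissue contrast was run again in the KO mice, in other animals. There too 8 of 10 members passed, 5 higher in fat and 3 higher in liver, against 74.4% of all 14603 genes tested. Fat held more Phgdh (817-fold, interval 419 to 1595, adjusted p = 7.63e-09), Psat1 (152-fold, adjusted p = 7.16e-09), Asns (99.1-fold, interval 71.0 to 138, adjusted p = 6.49e-10), Ddit3 (1.54-fold, adjusted p = 0.004) and Sesn2 (1.5-fold, adjusted p = 0.0342). The KO liver levels rest on few counts per library, 1 to 7 for Phgdh, 2 to 16 for Psat1 and 3 to 11 for Asns. Liver held more Fgf21 (9.60-fold, interval 3.98 to 23.2, adjusted p = 0.000321), Atf5 (2.14-fold, adjusted p = 0.000196) and Trib3 (2.05-fold, adjusted p = 0.0059), of which the last pair lost their calls with totals left unscaled (adjusted p = 0.257 and 0.625). Chac1 did not pass in KO mice (liver 1.2 times fat, interval 0.824 to 1.75, adjusted p = 0.352). Nor did Atf4 (fat 0.856 times liver, adjusted p = 0.102), although DESeq2 called Atf4 lower in fat (log2 difference -0.25, adjusted p = 0.0382). With totals left unscaled, Chac1 and Atf4 passed as higher in fat (edgeR adjusted p = 0.026 and 0.000396). Whether a ratio differs between the genotypes was not tested, because that difference is the genotype effect by which the members were chosen. Sesn2 in KO mice did not pass when KO fat 4, KO fat 5, KO liver 2 or KO liver 5 was left out, with adjusted p from 0.0731 to 0.0953.

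**Figure D2:**
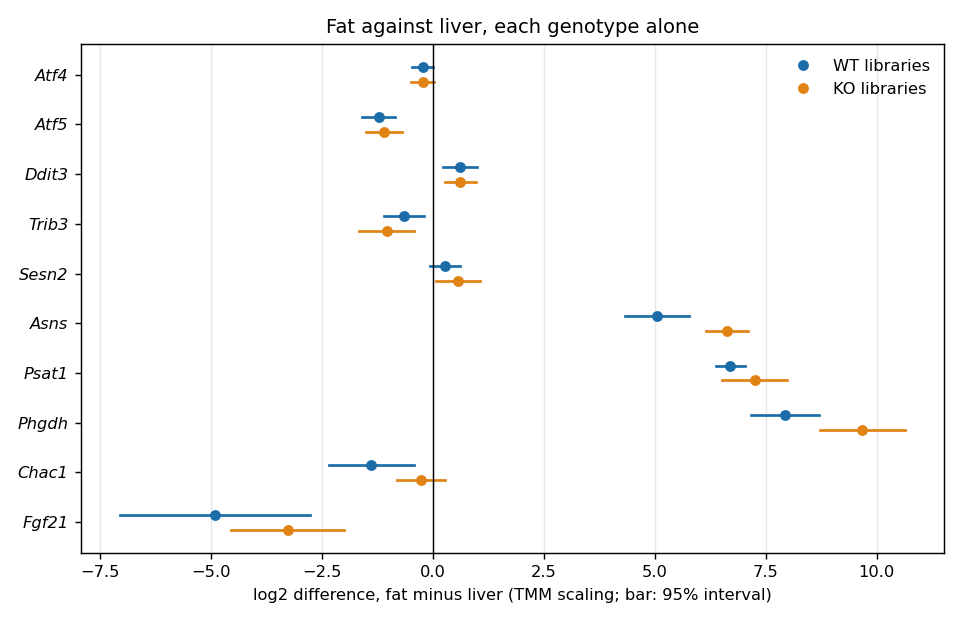
Log2 difference, fat minus liver, for each member from the edgeR fit (horizontal axis), WT libraries in blue and KO libraries in orange; bars are 95% intervals. Phgdh, Psat1 and Asns lie far to the right at 5.05 to 9.67, Fgf21 to the left at -4.90 and -3.26, and the Atf4 intervals reach 0 in both genotypes.

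To compare genes with each other, CPM was divided by each gene's exon length in kilobases. In WT fat the order began with Phgdh at 110 ± 31.1 CPM per kb (SD, n = 5), whose range stayed above that of the next gene, Atf5, at 44.4 ± 8.80. Atf5, Atf4 at 37.3 ± 5.71 and Psat1 at 28 ± 3.55 each overlapped the next in that order. Asns followed at 19.0 ± 2.08, apart from its neighbours on both sides. Ddit3, Sesn2, Chac1 and Trib3 lay between 6.78 and 2.68 with each overlapping the next, and Fgf21 was last at 0.231 ± 0.204.

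In WT liver Atf5 was first at 101 ± 21.6 CPM per kb and Atf4 was next at 42.7 ± 0.646, each apart from its neighbours. Chac1, Fgf21, Sesn2, Ddit3 and Trib3 formed a run of overlapping levels from 8.51 down to 4.11. Asns, Phgdh and Psat1 closed the order at 0.576, 0.443 and 0.263, overlapping each other but not the run above. The 3 synthesis enzymes thus ranked among the upper 5 of the 10 members in fat and as the last 3 in liver, which also holds for the KO groups, where Psat1, Asns and Phgdh lay at 0.173, 0.150 and 0.121 in liver.

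Between genotypes the values that chose the members were these. In fat, Asns stood at 45.3, 35.6, 39.5, 43.7 and 42.1 CPM in KO libraries 1 to 5, a mean of 41.2 ± 3.78, against 51.8 ± 5.69 in WT (SD, n = 5 each). The highest KO library lay just above the lowest WT library of 44.7, and the fitted KO level was 0.799 times that of WT. Chac1 in KO fat stood at 4.97, 3.50, 3.26, 2.65 and 4.16 CPM, 0.680 times the WT level. The 2 groups overlapped, and without WT fat 4, the highest library, the log2 difference went from -0.56 to -0.39. Hepatocyte markers ran with genotype in fat: all 8 were detected, and they summed to 1050 to 1545 CPM in KO fat and 1825 to 3735 in WT fat without overlap, with the highest sum in WT fat 4. In liver they summed to 153056 to 191148 CPM in KO and 188222 to 219241 in WT, with overlap. The adipocyte sum in fat had a median of 16643 CPM in KO and 21808 in WT. By median, erythroid and macrophage marker sums were lower in KO in both tissues and exocrine pancreas sums higher, all with overlap. The part of these transcripts in the fat or liver values of Asns, Chac1 or the other genes compared between genotypes was not tested.

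In liver, Asns stood at 0.351, 0.377, 0.262, 0.264 and 0.795 CPM in KO, on 3 to 11 counts per library, against 1.57 ± 1.17 in WT. The fitted KO level was 0.268 times that of WT, and the log2 difference went from -1.90 to -1.39 without WT liver 3. KO liver 5 lay above WT liver 1, so the groups overlapped. Chac1 in KO liver stood at 6.66, 4.98, 4.13, 3.26 and 3.32 CPM, against 13.9 ± 11.3 in WT, 0.317 times. Without WT liver 2 the log2 difference went from -1.66 to -1.04, and without both WT livers rich in muscle transcripts to -0.69.

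**Figure D3:**
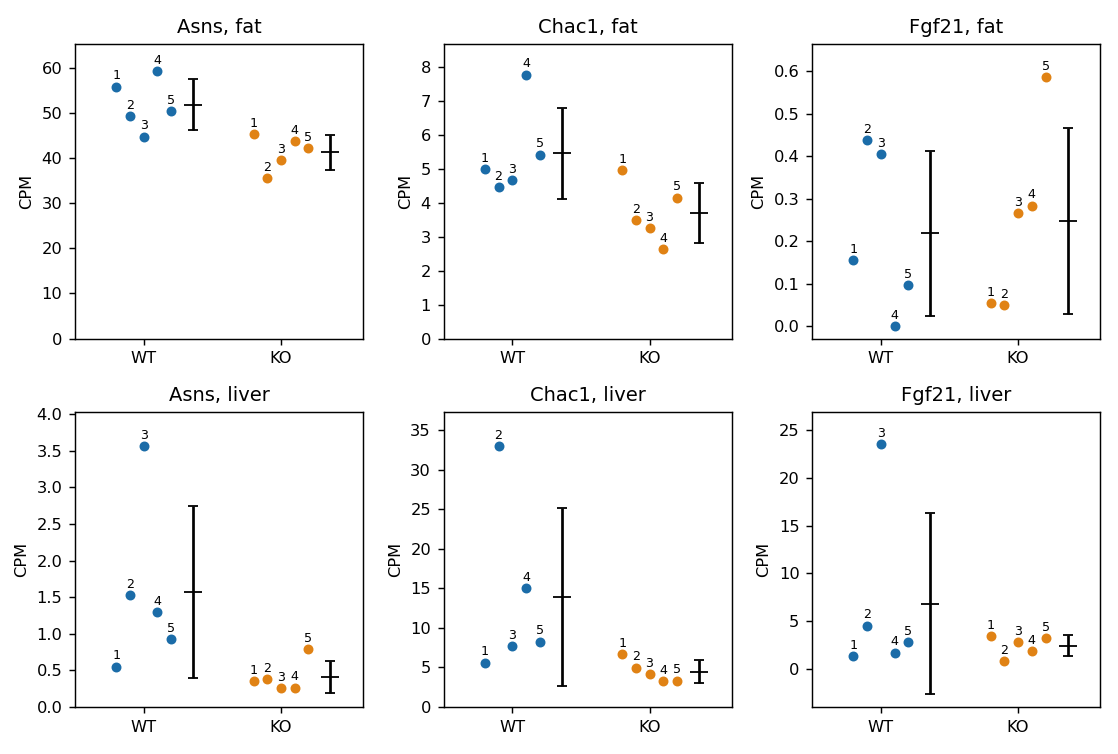
CPM of Asns, Chac1 and Fgf21 in fat (top) and liver (bottom) for WT (blue) and KO (orange), 1 point per library with its number; the bar at the right of each group is the mean with its SD (n = 5). Asns and Chac1 were chosen for lying lower in KO; in liver the WT groups are spread by single libraries, WT liver 2 for Chac1 at 33 CPM and WT liver 3 for Fgf21 at 23.6 CPM.

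The remaining members gave smaller or less even values. Phgdh in liver stood at 0.140, 0.302, 0.459, 0.529 and 0.0722 CPM in KO, below each WT library, on 1 to 7 against 8 to 21 counts. It did not pass the low-count filter of that fit, so it has no fitted fold. WT liver 4 and WT liver 5, with the highest Phgdh levels of 1.96 and 1.35 CPM, also held the most adipocyte transcripts, 70.4 and 64.8 CPM against 10.9 to 24.0 in the other livers, and fat is where Phgdh is abundant. The part of these transcripts in the Phgdh level was not tested. Of all genes tested between KO and WT liver, 1.11% had each KO library below each WT library.

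Fgf21 in KO liver stood at 3.44, 0.829, 2.82, 1.85 and 3.18 CPM, a mean of 2.42 ± 1.07 against 6.79 ± 9.49 in WT. The log2 difference of -1.47 came down to -0.11 without WT liver 3, so it rests on that library. Psat1 in liver was 0.655 times the WT level on 2 to 17 counts per library. In fat, Fgf21 held at most 10 counts in any library and was not fitted. For the other members the KO level was 0.847 to 1.19 times that of WT in liver (Trib3, Ddit3, Atf4, Atf5 and Sesn2) and 0.894 to 1.09 times in fat (the same genes with Psat1 and Phgdh), with overlapping groups throughout. No member had each KO library below each WT library in fat, as 0.734% of all genes tested there did. Without KO fat 2, the library with urothelial transcripts, the Asns log2 difference in fat was -0.28 in place of -0.32 and that of Chac1 -0.54 in place of -0.56.

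Of the 9 members fitted in each tissue, 7 had a fitted KO level below WT, and the median of their log2 values was -0.15 for fat and -0.24 for liver. Over all genes tested, 7336 of 14707 lay below in fat and 6647 of 13298 in liver, with a median of 0.00 in both. Since Asns and Chac1 set the choice in this contrast, nothing is read from these counts. Across all genes, none passed the KO against WT test in fat, a share of 0 among 14707 tested, although 1048 had an unadjusted p under 0.05. In liver 1 gene did, 0.00752% of 13298. It was Hectd2os, named because the count is so small.

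The other genes of the pathway were taken from 8 lists with 131 genes in all. Between KO and WT, none of the 126 tested in fat and none of the 125 tested in liver passed (edgeR, smallest adjusted p 0.687 and 0.188), while 7 and 19 had an unadjusted p under 0.05. Over all genes, the shares with an unadjusted p under 0.05 were 7.13% in fat and 13.1% in liver. DESeq2, run as an alternative, called 2 of the 125 in liver, Slc1a5 and Cebpb, and 137 genes or 1.05% of all that it gave an adjusted p, so the pathway's count is near that background.

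Slc1a5 is a glutamine and neutral amino acid carrier and a target of ATF4. It stood at 5.47, 3.39, 4.79, 6.52 and 3.90 CPM in KO liver libraries 1 to 5 and at 7.81, 7.00, 8.30, 13.9 and 10.8 in WT liver, 0.499 times as much without overlap (edgeR adjusted p = 0.188, DESeq2 adjusted p = 0.00729). Its highest levels were those of WT liver 4 and WT liver 5, the livers with most adipocyte transcripts, and Slc1a5 is abundant in fat. Without both the ratio was 0.625 (edgeR adjusted p = 0.201), and the part of adipocyte transcripts in it was not tested. Cebpb, a C/EBP protein that ATF4 pairs with and a fasting-responsive liver factor, stood at 149, 129, 106, 119 and 81.7 CPM in KO liver and at 43.7, 66.6, 36.4, 77.9 and 65.4 in WT liver, 1.99 times as much without overlap (edgeR adjusted p = 0.2, DESeq2 adjusted p = 0.00161). Of all genes tested in liver, 1.11% had each KO library below each WT library, as Slc1a5 did. The share with each KO library above each WT library, as for Cebpb, was not counted. In fat Cebpb ranged from 15.6 to 48.9 CPM in KO and from 5.25 to 25.9 in WT (ratio 2.86, edgeR adjusted p = 0.687). Of the 12 bZIP partners listed, Cebpb among them, 8 lay higher and 4 lower in KO fat. In KO liver 4 lay higher and 8 lower, and 0 passed the edgeR test in either tissue.

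Other pathway genes with the smallest p between genotypes also missed the threshold. In liver these were Sesn3 (ratio 1.33), a relative of Sesn2, Eif2b2 (0.781), a subunit of the exchange factor that phosphorylated eIF2 blocks, Creld2 (0.580), a chaperone-related protein of the endoplasmic reticulum, and Nupr1 (0.517), a stress-induced nuclear protein, with adjusted p from 0.235 to 0.254. In fat they were Xbp1 (0.725, KO 122 to 156 CPM against 161 to 246 without overlap), the factor of the IRE1 arm, Sesn3 (1.24), the lysyl-tRNA synthetase Kars (0.888), the serine hydroxymethyltransferase Shmt1 (0.767) and the disulfide isomerase Pdia4 (0.788), each with adjusted p = 0.687. No pathway gene passed the test for a KO effect that differed between fat and liver (129 tested, smallest adjusted p 0.903, 5 with an unadjusted p under 0.05, against 5.36% of all genes), and across all 15652 genes none passed.

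By list, the signs were mixed. Over all lists, 78 of 126 genes lay lower in KO fat and 76 of 125 in KO liver. Of all genes tested, 7336 of 14707 and 6647 of 13298 did. Of 20 tRNA synthetases, 18 lay lower in KO fat (median -0.04 on the log2 scale) and 14 in KO liver, and 0 were called. In liver, 10 of 12 amino acid transporters lay lower (median -0.22) and 14 of 18 endoplasmic reticulum chaperones (median -0.14), while 13 of 18 genes of serine, one-carbon and amino acid synthesis lay higher (median 0.07), again with 0 called. In fat, 7 of 13 transporters and 12 of 18 chaperones lay lower, and 9 of 19 synthesis genes lay higher. The median over all genes tested was 0.00 in both tissues.

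Between tissues the pathway lists went their own ways. In WT mice 128 of the 131 genes were tested, of which 29 were higher in fat and 71 higher in liver, against 38.4% and 35.9% of all genes. With totals left unscaled the split was 68 in fat and 36 in liver, beside 10593 and 2246 of all 14739 genes, so these list counts hold relative to the median of all genes. Of the genes named below, Ppp1r15a and Ppp1r15b lost their calls unscaled (adjusted p = 0.415 and 0.0974), and none changed direction. Among them, Stc2 and Pycr1 did not pass the low-count filter among liver libraries alone, nor Slc3a1 and Cyp4a14 among fat libraries alone. Each of these entered the tissue fit only through the tissue where it is high, so its fold rests on low counts in the other. The sensors and controllers of the response were near even, 3 of 15 higher in fat and 6 in liver. Impact, an inhibitor of the amino acid sensor GCN2, was 2.44 times higher in fat (adjusted p = 1.32e-06). Both phosphatase subunits that reset eIF2, Ppp1r15b and Ppp1r15a, were higher in liver, 2.23-fold (adjusted p = 3.55e-06) and 2.10-fold (adjusted p = 1.62e-05).

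Genes of amino acid synthesis other than the members mostly lay with liver, 12 of 19 against 5 in fat. Ass1, the urea cycle enzyme that joins citrulline and aspartate, was 657 times higher in liver (adjusted p = 1.16e-08), and Cbs, of cysteine synthesis, 53.9 times (adjusted p = 1.14e-08). The proline synthesis genes Pycr1 (11.2-fold, adjusted p = 2.94e-05) and Aldh18a1 (5.15-fold, adjusted p = 0.000145) went with fat, as Asns, Psat1 and Phgdh did. Among transporters, 6 of the 12 tested were higher in fat and 3 in liver. The extremes were Slc1a5 in fat (195-fold, 1031 to 2345 CPM against 7.00 to 13.9, adjusted p = 3.02e-09) and the glutamine carrier Slc38a3 in liver (453-fold, adjusted p = 4.92e-09).

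Of 20 tested genes among other ATF4 responders, 7 were higher in fat and 9 in liver. Stc2, a secreted glycoprotein, stood 34.3 times higher in fat (adjusted p = 1.18e-08) and Nupr1 15.7 times (adjusted p = 2.34e-08). In liver Slc3a1, a cystine transporter subunit, stood 155 times higher (adjusted p = 7.67e-10) and the hormone Gdf15 42.1 times (adjusted p = 5.49e-06). Of the secreted products named here, Gdf15 and Fgf21 were thus higher in liver and Stc2 in fat.

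The bZIP partners split with 3 of 12 higher in fat and 6 in liver. Jdp2, a repressor, was 4.40 times higher in fat (adjusted p = 7.54e-06) and Batf3 1.81 times (adjusted p = 0.0126), while Jun was 5.47 times (adjusted p = 2.99e-07) and Cebpb 5.02 times higher in liver (adjusted p = 0.000204). The tRNA synthetases had 4 of 20 higher in fat, with Wars at 2.51-fold (adjusted p = 4.32e-07) and Gars at 1.44-fold (adjusted p = 0.00018). Liver had 9, with Tars at 3.05-fold (adjusted p = 2.5e-06) and Aars at 2.85-fold (adjusted p = 6.25e-08).

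Endoplasmic reticulum chaperones of the ATF6 and XBP1 arms had 0 of 18 higher in fat and 16 higher in liver. Herpud1, which helps clear misfolded proteins, was 12.7 times higher in liver (adjusted p = 6.4e-10) and Dnajc3, an inhibitor of eIF2 kinases, 4.45 times (adjusted p = 7.19e-08). The median log2 difference of this list was -0.93, and with totals left unscaled it was 0.01, with 2 higher in fat and 5 in liver. Targets of PPAR alpha, the fasting receptor that also drives Fgf21, had 10 of 12 higher in liver, with Fabp1 at 1325-fold (adjusted p = 1.26e-05) and Cyp4a14 at 881-fold (adjusted p = 3.34e-06), and 1 in fat, Pdk4 at 5.38-fold (adjusted p = 5.22e-05). In KO mice 31 of 128 pathway genes were higher in fat and 72 in liver, against 38.8% and 35.6% of all genes.

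**Figure D4:**
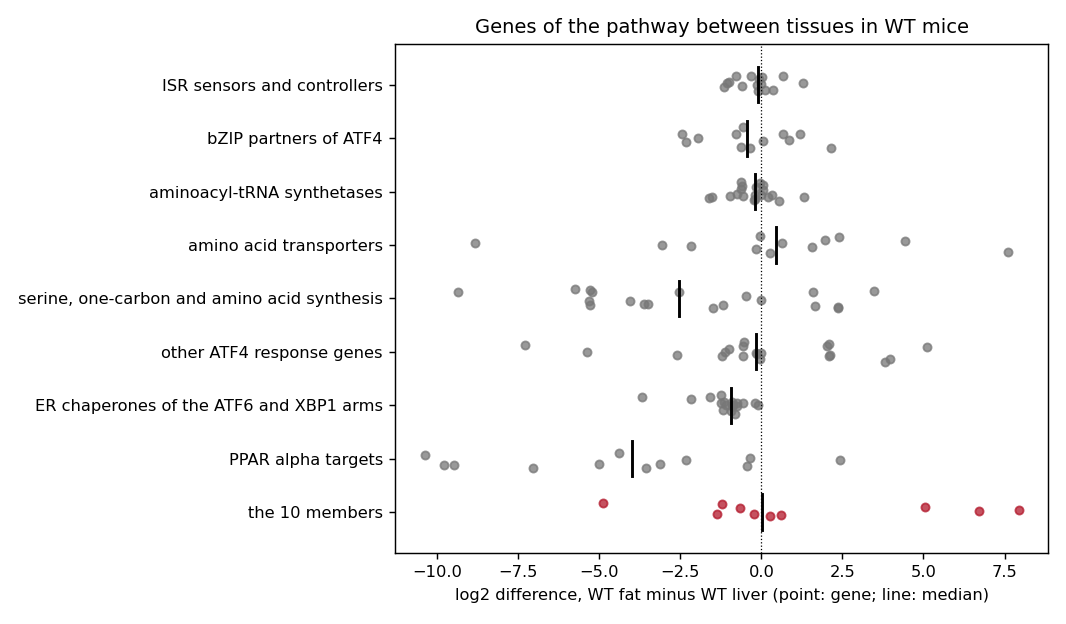
Log2 difference, WT fat minus WT liver, from the edgeR fit (horizontal axis), 1 point per gene for each pathway list (grey) and for the members (red); the black line is the median. Each of the 18 chaperones lies left of 0 with TMM scaling (their median is 0.01 with totals unscaled), the synthesis list has a median of -2.53, and the members run from -4.90 for Fgf21 to 7.94 for Phgdh.

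Whether the members vary together from mouse to mouse was asked within each tissue after removing the genotype means, so that the values that chose them play no part. A pair was used where both genes had a mean of at least 10 counts, which left out Fgf21 in fat and Phgdh in liver. Each tissue gave 36 pairs of members. The rest of the 80 relations computed set a member in fat against the same member in liver, matched by library number. No relation of the 80 passed after Benjamini-Hochberg adjustment (exact permutation of libraries within genotype, two-sided). The closest was Psat1 with Phgdh in fat, the neighbouring steps of serine synthesis, at r = 0.89 over 10 libraries (exact permutation p = 0.000833, adjusted p = 0.0667; Spearman's rho 0.90, exact permutation p = 0.00243, adjusted p = 0.194). It was 0.86 without the libraries farthest from the median of Psat1, KO fat 1 and KO fat 3, and 0.86 within WT and 0.92 within KO. Fat libraries numbered 1, 2 and 3 matched best with their own number across genotypes (r = 0.34, 0.15 and 0.50 over all genes tested). The permutation took no account of this, so for fat pairs the WT and KO values may not be separate support.

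Atf4 and Atf5 went opposite ways in fat (r = -0.83, rho = -0.76, exact permutation p = 0.00597 and 0.0199, adjusted p = 0.206 and 0.399), with r = -0.61 without KO fat 1 and WT fat 3. Asns in fat had r = 0.66 with Psat1 (adjusted permutation p = 0.407) and 0.67 with Phgdh (adjusted permutation p = 0.407). It had 0.52 with Chac1 and -0.49 with Atf4. In liver Asns had r = 0.77 with Fgf21 (rho = 0.54, exact permutation p = 0.0368 and 0.141, adjusted p = 0.407 and 0.595), which came down to 0.26 without WT liver 2 and WT liver 3 and so rests on those libraries. With Chac1 the liver value was 0.14. The median r over pairs was 0.22 in fat, with 27 of 36 above 0, and 0.14 in liver, with 26 of 36 above 0. The pairs share libraries and their scaling, so these medians are a description.

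**Figure D5:**
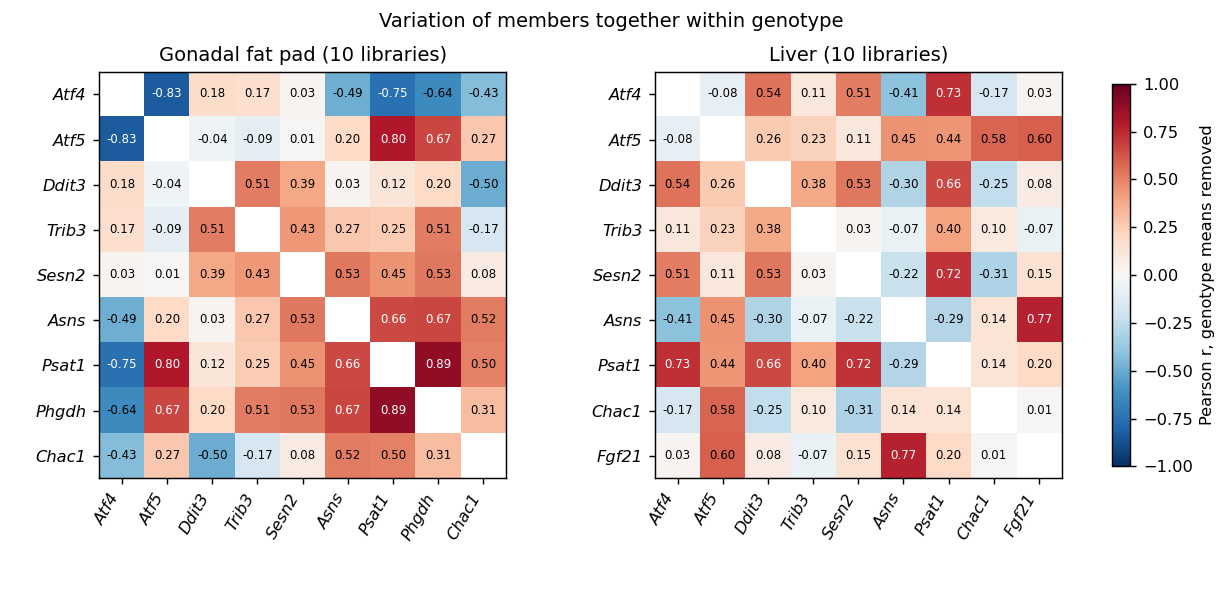
Pearson r between members over the 10 libraries of each tissue after genotype means were removed, gonadal fat pad on the left and liver on the right; red is positive and blue negative. Psat1 with Phgdh at 0.89 is the highest value in fat and Atf4 with Atf5 at -0.83 the lowest, and no relation passed the adjusted permutation test.

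All genes that averaged 1 CPM or more were also ranked by r with Asns, with genotype means removed. The top of a ranking this long can exceed the few members whatever their relation to Asns. Of the 13805 fat genes that averaged 1 CPM or more, those with the highest r with Asns over 10 libraries were Ganc (0.96), Gm30238 (0.95), Agmo (0.95), Angptl2 (0.94) and Ffar2 (0.93). The nearest member was Phgdh, at rank 785, then Psat1 at rank 845, and Atf4 ranked 11740. Of 12905 genes in liver, the closest were Tspan33 (0.96), Ces4a (0.96), Cmah (0.95), Thumpd2 (0.95) and Nudt5 (0.95), with Fgf21 at rank 237 and Chac1 at rank 4979. These are the top of a ranking over a few libraries and carry no test.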

How the data were processed

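Expected counts per Ensembl gene were made and deposited by the authors, per the file headers; Trim Galore 0.2.8, STAR 2.4.0d, RSEM 1.2.12, DESeq2 and GRCm38 are named in the submitters' processing notes, and no source used here gives the strand setting of the counting. Expected counts were rounded to whole numbers, and each library held 12880933 to 20784145. Symbols, positions and exon lengths came from the GENCODE annotation of GRCm38, with 48058 of 48440 IDs matched, and promoters from RefSeq. Genes were kept by filterByExpr (minimum count 10, total 15) and tested with the quasi-likelihood test of edgeR 4.0.16 in R 4.3.3 with TMM scaling and Benjamini-Hochberg adjustment over all genes tested. Printed CPM used TMM within each tissue times the geometric mean factor of that tissue. Correlations used log2 CPM with a prior count of 2 and 14400 permutations. The tests were tested on simulated data. DESeq2 1.42.0, limma 3.58.1, RLE scaling, other filters, a replicate block and leaving out libraries were alternatives. Libraries are separate mice of a group, and whether fat and liver of 1 number share a mouse is not stated. The named genes were all members; per list the 2 called genes highest in each WT tissue; the 6 pathway genes of smallest p per tissue between genotypes; and the 5 genes closest to Asns. Members and lists were chosen with earlier results of these data known. Sequence tables of proteins were not used here.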

Additional observations from a re-analysis of the deposited data

Results flagged for a closer look

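In 40 groups of 5 libraries, 1 for each member in each genotype and tissue, the gap of the highest or lowest library to its nearest neighbour was set against the range of the group, with Dixon's 95% critical value of 0.71 as the limit. Chance flags about 1 in 20 groups. There were 3 such libraries. Asns in KO liver 5 stood at 0.795 CPM, with the next KO liver at 0.377, on 11 and 5 counts. Chac1 in WT fat 4 stood at 7.79 CPM, with the next WT fat library at 5.43, and this library also held the most hepatocyte transcripts of the fat libraries (3735 CPM). Fgf21 in WT liver 3 stood at 23.6 CPM, with the next WT liver at 4.52, and the same library had the highest WT liver Asns level, 3.56 CPM.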

How the results depend on the processing

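Precision in liver is limited by depth for Asns, Psat1 and Phgdh, which held 1 to 36 counts per library, and in fat for Fgf21, which could not be tested between tissues at a minimum of 1 CPM in 5 libraries. Asns, Psat1, Phgdh and Fgf21 kept their direction and passed between tissues under every alternative that could fit them. The ratio of mean scaling factors, fat to liver, was 1.87. Leaving totals unscaled was chosen after seeing the data, as was leaving out libraries for their markers. With totals unscaled the sign turned for Trib3 (0.29) and Atf4 (0.72) in WT and for Chac1 (0.63) and Atf4 (0.68) in KO. Of these, Atf4 passed as higher in fat in WT and KO (edgeR adjusted p = 0.000185 and 0.000396), as did Chac1 in KO (adjusted p = 0.026). Trib3 did not pass (adjusted p = 0.228). Between KO and WT in liver, where 1 gene was called, no filter gave 15, DESeq2 137, a replicate block 3, leaving out the pair of muscle-rich livers 3, leaving out the pair richest in adipocyte transcripts 11, and leaving out 1 library 0 to 3. Between KO and WT, DESeq2 called 13 genes in fat and 2 pathway genes in liver, and it called 2 genes for a KO effect that differs between fat and liver. The cause was not tested. Same-numbered libraries correlated at -0.02 to 0.17 (WT fat and liver), 0.05 at most (KO), -0.17 to 0.50 (KO and WT fat) and -0.23 to 0.25 (KO and WT liver). Of the 5 numbers, 2, 1, 3 and 1 matched best with their own. Whether a number marks a shared condition is not settled by this. The main fits did not pair the numbers, and only the correlations of fat with liver matched them. With the replicate block, KO Sesn2 between tissues missed the threshold (adjusted p = 0.0587).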
